A study of Oncorhynchus mykiss with 6 samples.

Results

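The genes described here make the sulfated glycosaminoglycans of the skin of rainbow trout (Oncorhynchus mykiss). They are the 150 of 43862 gene rows of the deposited table whose KEGG pathway entry is the synthesis of chondroitin and dermatan sulfate (44 rows), keratan sulfate (51 rows) or heparan sulfate (66 rows). The 11 rows of the linker that chondroitin, dermatan and heparan sulfate share are counted under both. RNA was sequenced from dorsal skin of a yellow mutant at 90 days of age (3 libraries) and at 1 day of age (3 libraries). Both ages carry the mutant phenotype, so ages are compared and colours are not. The labels name neither the mutated gene nor a pooling of fish, and whether a replicate is its own fish is left unsaid. The p-values therefore refer to the variation among these libraries, part or all of which may be technical.

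Sulfated glycosaminoglycans are long sugar chains that hang on core proteins and bind water, growth factors and matrix proteins. Chondroitin, dermatan and heparan sulfate are built in the Golgi on a linker of xylose, galactose and glucuronic acid. A first sugar then decides which chain grows, polymerases lengthen it, epimerases turn glucuronic into iduronic acid, and sulfotransferases add sulfate at set positions. Keratan sulfate is an extended chain of galactose and N-acetylglucosamine on ordinary N- or O-glycans, so many of its enzymes also serve other glycans. In skin, dermatan sulfate sits on collagen-binding proteoglycans of the dermis and heparan sulfate on cell surfaces and basement membranes.

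Of the 150 rows, 140 carried an NCBI gene number and 10 were assembled loci outside the annotation (MSTRG). Copies of a gene are told apart by the table's gene number, given in brackets. Symbols come from best matches, and 2 loci disagree with their pathway entry by product name. MSTRG.43079, entered under ST3GAL3, is named as a mobile-element polymerase, and MSTRG.1769, entered under EXT1, is named as enamelin. The rows Chst12 (110516026) and Chst12 (110518050) held identical counts in all 6 libraries. No source used here says how reads matching several copies were divided, so the split between close copies is uncertain.

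Total counts ran from 16157312 to 18960866 at day 90 and from 17795175 to 18395388 at day 1. Levels are FPKM, fragments per length of transcript and per library total, which the authors scaled to library size. Fold changes are log2 of day 90 over day 1 ± SE from edgeR on counts with TMM factors, which were 0.823 to 0.913 at day 90 and 1.11 to 1.17 at day 1. The median log2 fold change of all tested genes was -0.03 with TMM factors and -0.43 with library size alone. A gene of even FPKM thus stands above 0 in the fit, and FPKM and fold change can differ in direction. HS2ST1 (110530088), for instance, had lower FPKM in every day 90 library but a fold change of 0.20 ± 0.11. With counts scaled to a list of epidermal markers (called epidermis scaling below) the median of all tested genes was -1.30. The summed FPKM of that list was 7537 to 9056 at day 90 and 2139 to 2316 at day 1, and that of dermis and scale markers was 24320 to 26477 at day 90 and 2883 to 4072 at day 1. Lens markers summed to 0.72 to 1.3 FPKM at day 90 and 2231 to 2894 FPKM at day 1, although the tissue is labelled dorsal skin at both ages. Of 40 lens rows 28 had no count at day 90, CRYAA and CRYGS among them, and 0 had none at day 1. In bulk RNA, fewer cells of a type and less RNA per cell cannot be told apart.

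A gene was tested where 3 or more of the 6 libraries had an FPKM of 1 or more, and 112 of the 150 members passed. A row under 1 FPKM in every library of an age passed only through the other age. The filter thus set the direction of its FPKM. Among the rows called below, this holds for the lower rows of B3GNT7 and B4galt2, Fut8 (110529771), HS3ST5 (110522134), HS3ST1 (110526778) and chst1 (118964962). It also holds for Csgalnact1 (110537010), Csgalnact1 (110536326), Chst11 (110491911), ST3GAL2 (110494626), CHSY1 (110514694), CHST15 (110513623) and B4GALT1 (110534462). Further lower rows of this kind are ndst1 (110488619), Hs3st1 (110526036), Hs3st3b1 (118948632) and MSTRG.43079. Among higher rows it holds for chst1 (110497842) and B3GNT2 (110493723). Of the 112, 28 were higher at day 90, 46 were lower and 38 did not pass the threshold of 0.05 on the adjusted p. That is 66.1% called, against 67.9% of all 29436 genes tested, a share near the background. Higher calls made up 25% of the tested members, against 32.5% of all genes, and lower calls 41.1%, against 35.4%. The median log2 fold change was -0.15, against -0.03 over all genes. At a fold of at least 2, 15 members were higher and 28 lower, while 16.2% and 22.6% of all genes were. Most of these 28 are rows named above whose direction the filter set. The larger number of lower calls is therefore not read as a result about the members. The FPKM of the ages did not overlap in 83 of the 112 (74.1%), against 75.2% of all genes. With library size alone 22 of the 28 higher genes were still called higher, and with epidermis scaling 4 were, namely chst14 (110521680), B3GNT2 (110486007), chst1 (110497842) and St3gal2 (110527664), while 7 of the 28 were then called lower. All 46 lower genes were called lower with both scalings. Both move fold changes down, to medians over all genes of -0.43 and -1.30, so a lower call could hardly be lost. Their retention is therefore no measure of greater stability. The split of calls was then 22 higher and 59 lower with library size alone, and 4 higher and 91 lower with epidermis scaling. By the FDR column of the authors' deposited table, 93 of the 150 rows were under 0.05, 28 higher and 65 lower. That count takes in the members below the filter used here. The same share over all deposited rows was not counted, so the split has no background.

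**Figure D1:**
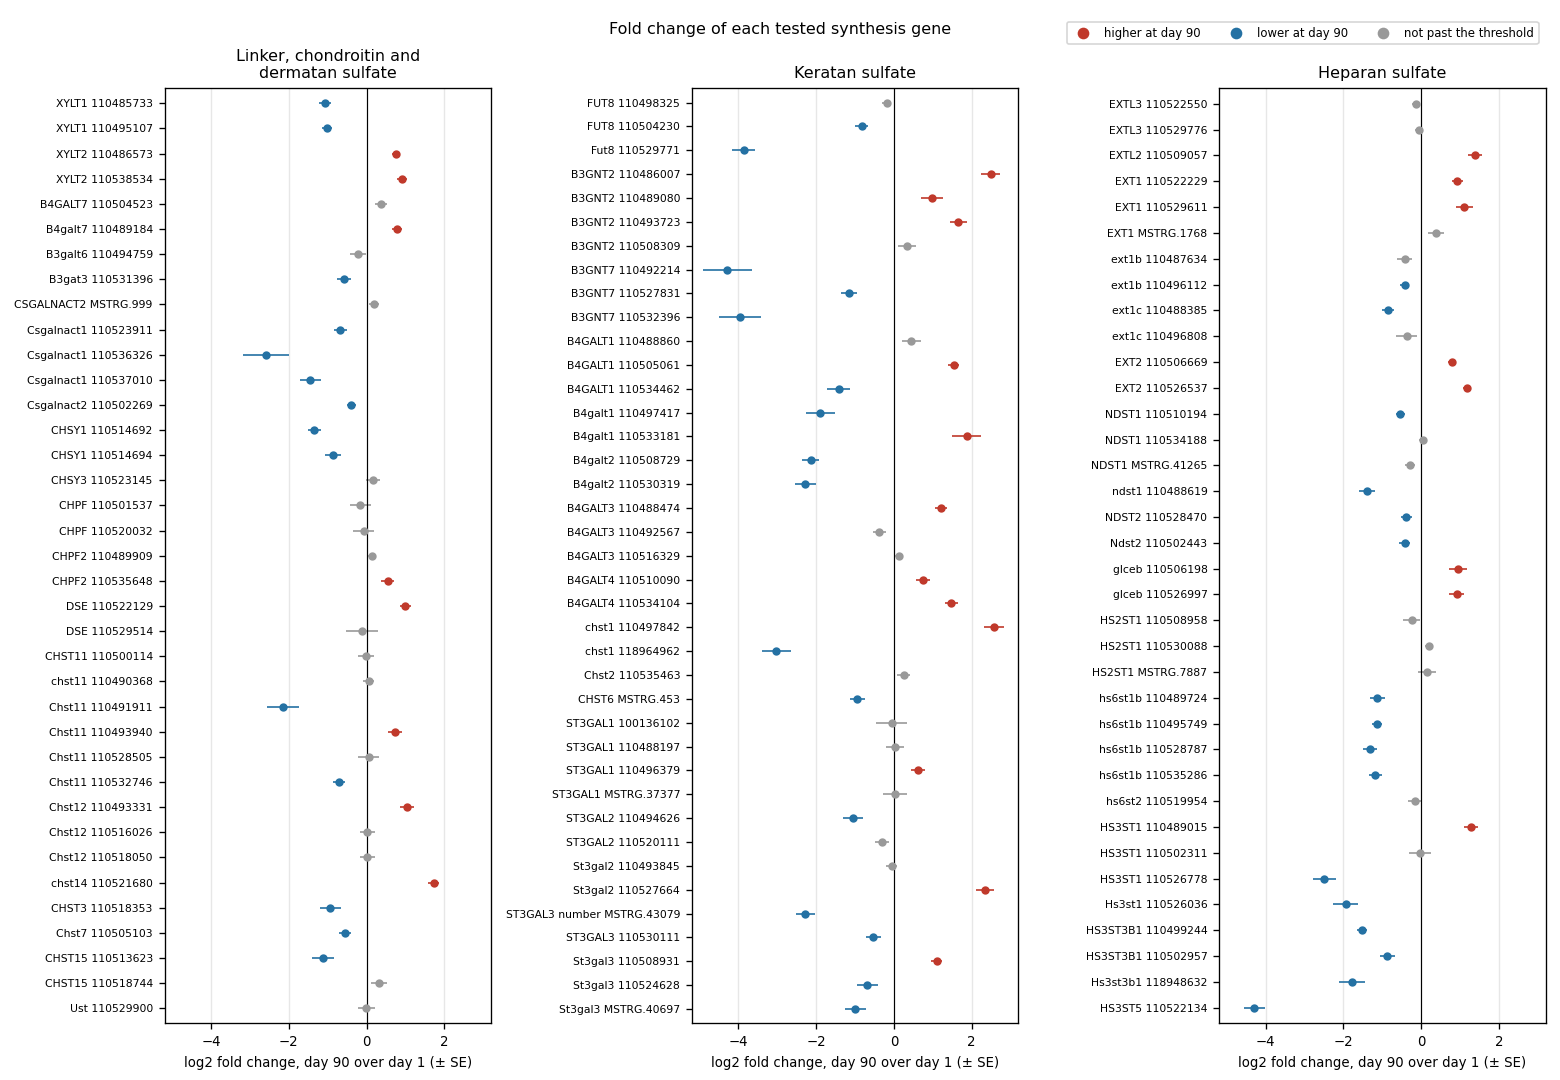
log2 fold change of day 90 over day 1 (x axis, ± SE, edgeR with TMM factors) of each of the 112 tested genes, labelled by symbol and gene number, in 3 panels by chain. Red points are the 28 genes higher at day 90, blue points the 46 lower and grey points the 38 not past the threshold; with epidermis scaling 24 of the 28 red genes lose their call.

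By pathway, 8 chondroitin and dermatan genes were higher and 14 lower of 37 tested (median log2 fold change -0.02). In keratan sulfate synthesis 12 were higher and 16 lower of 39 (median -0.06). In heparan sulfate synthesis 11 were higher and 19 lower of 44 (median -0.27). The shares called were 59.5%, 71.8% and 68.2% in this order, against 67.9% of all genes tested. Of the 38 members below the filter the mean FPKM was higher at day 90 in 3 and at day 1 in 34, and of all 14426 such rows it was higher at day 90 in 3521 and at day 1 in 9295. No count was found at day 90 in 9 of the 150 members, 8 of them of the heparan pathway, and in 4839 of all 43862 rows. At day 1 it was 1 member and 2085 of all rows. All copies of NDST4, HS6ST3 and HS3ST2 fell below the filter.

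The linker enzymes divided by gene. The rows named XYLT2, one of the xylosyltransferases that put the first sugar on the core protein, were higher at day 90, and the tested rows named XYLT1 were lower. XYLT2 (110538534) stood at 2.68, 3.1 and 3.55 FPKM at day 90 and at 2.18, 2.03 and 2.2 FPKM at day 1 (0.92 ± 0.13, edgeR adjusted p = 0.000146). XYLT2 (110486573) was at 3.12, 3.17 and 3.49 FPKM at day 90 and at 2.61, 2.39 and 2.57 FPKM at day 1 (0.75 ± 0.11). The ages did not overlap in either row, though with epidermis scaling the values were -0.36 and -0.51. XYLT1 (110495107) had 1.27, 1.31 and 1.72 FPKM at day 90 and 3.99, 3.96 and 3.28 FPKM at day 1 (-1.01 ± 0.13). XYLT1 (110485733) was lower by a like amount (-1.07 ± 0.15), and the XYLT1 rows below the filter had means of 0.11 and 0.02 FPKM at day 90, against 1.14 and 0.38 FPKM at day 1. Summed over XYLT2 and XYLT1 rows, the level was 9.02 ± 1 FPKM at day 90 and 12.9 ± 1.2 FPKM at day 1 (SD, n = 3 each).

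Of the other linker enzymes, B4galt7 (110489184), which adds the first galactose, was higher, with 6.22, 7.18 and 5.8 FPKM at day 90 and 4.99, 4.62 and 4.5 FPKM at day 1 (0.78 ± 0.12, -0.47 with epidermis scaling). B3galt6 (110494759), for the next galactose, had 1.65, 1.28 and 1.44 FPKM at day 90 and 2.66, 1.92 and 2.09 FPKM at day 1, a fold change of -0.22 ± 0.21 that did not pass (edgeR adjusted p = 0.392). B3gat3 (110531396), which adds the closing glucuronic acid and has a single row, was lower, with 1.92, 3.26 and 2.53 FPKM at day 90 and 4.45, 4.88 and 3.99 FPKM at day 1 (-0.58 ± 0.18, edgeR adjusted p = 0.0152). That call was lost without day 1 replicate 2 (adjusted p = 0.0692).

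Of 12 tested rows for enzymes that start and lengthen chondroitin, 6 were lower, 1 was higher and 5 did not pass. Called rows made up 58.3%, against 67.9% of all genes tested. Lower rows made up 50%, against 35.4%, and higher rows 8.33%, against 32.5%. Among the lower rows CHSY1 (110514694), Csgalnact1 (110536326) and Csgalnact1 (110537010) passed the filter through day 1 alone. The 5 rows of CSGALNACT, which adds the first N-acetylgalactosamine and so commits a linker to chondroitin, summed to 8.44 ± 0.68 FPKM at day 90 and 17.1 ± 2.9 FPKM at day 1, and 4 of the 5 were lower. The most abundant, Csgalnact2 (110502269), had 2.78, 3.8 and 3.51 FPKM at day 90 and 5.72, 5.64 and 5.79 FPKM at day 1 (-0.39 ± 0.12, edgeR adjusted p = 0.0175). The tightly grouped day 1 libraries lay above every day 90 library. Csgalnact1 (110537010) had 0.78, 0.53 and 0.81 FPKM at day 90 and 2.9, 3.15 and 1.59 FPKM at day 1 (-1.45 ± 0.27). Csgalnact1 (110536326) had the largest fall of these rows (-2.60 ± 0.59), and without day 90 replicate 1 its value was -3.68.

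Among the chondroitin polymerases, CHSY1 (110514692), of the synthase that alternates both sugars of the chain, was lower, with 1.63, 1.29 and 1.41 FPKM at day 90 and 5.54, 5.15 and 3.86 FPKM at day 1 (-1.35 ± 0.17, edgeR adjusted p = 8.14e-05). CHSY3 (110523145) did not pass (0.16 ± 0.18). CHPF (110520032), a partner of these synthases, had 1.48, 2.76 and 3.25 FPKM at day 90 and 4.07, 3.78 and 2.32 FPKM at day 1, so that the ages overlapped (-0.07 ± 0.27). CHPF2 (110489909), a related glucuronyltransferase and the most abundant of the group, had 7.06, 7.16 and 8.96 FPKM at day 90 and 9.47, 9.41 and 8.29 FPKM at day 1 (0.13 ± 0.11, not past the threshold). The other copy, CHPF2 (110535648), was higher by 0.54 ± 0.16 (-0.70 with epidermis scaling, not called with library size alone), but the FPKM of the ages overlapped. Its call was lost without day 90 replicate 1, day 90 replicate 2 or day 1 replicate 1, the largest adjusted p among these being 0.0577.

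Of the dermatan enzymes, chst14 and 1 of the 2 rows of DSE were higher. DSE (110522129), the epimerase that makes dermatan out of chondroitin, had 7.43, 9.16 and 7.7 FPKM at day 90 and 5.8, 5.84 and 4.28 FPKM at day 1 (1.00 ± 0.14, edgeR adjusted p = 0.000168, -0.25 with epidermis scaling). The other row, DSE (110529514), had 0.91, 0.83 and 1.28 FPKM at day 90 and 2.1, 1.67 and 0.55 FPKM at day 1, overlapping between the ages (-0.12 ± 0.40, edgeR adjusted p = 0.799). chst14 (110521680), the sulfotransferase of the dermatan 4-O position, had 13.7, 12.87 and 11.99 FPKM at day 90 and 5.63, 5.25 and 4.39 FPKM at day 1 (1.73 ± 0.14, edgeR adjusted p = 4.35e-06), and stayed higher with epidermis scaling (0.49). It had the smallest adjusted p of the chondroitin and dermatan pathway. Chst12 (110493331), which puts sulfate on the 4-O position and was the most abundant gene of the pathway, had 19.46, 16.14 and 13.25 FPKM at day 90 and 9.69, 10.99 and 10.5 FPKM at day 1 (1.04 ± 0.17, -0.19 with epidermis scaling). The identical Chst12 rows did not pass (0.02 ± 0.19).

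The other sulfotransferases of chondroitin differed by gene and copy. CHST3 (110518353), which acts at the 6-O position, had 1.25, 0.94 and 2.13 FPKM at day 90 and 3.89, 4.18 and 2.63 FPKM at day 1 (-0.93 ± 0.27, edgeR adjusted p = 0.012). Chst7 (110505103), of the same activity, had 2.49, 2.9 and 2.61 FPKM at day 90 and 5.21, 5.05 and 5.16 FPKM at day 1 (-0.56 ± 0.15). Both genes were thus lower in each day 90 library than in any day 1 library. chst11 (110490368), a 4-O-sulfotransferase, had 1.28, 1.86 and 1.93 FPKM at day 90 and 2.14, 2.14 and 2.06 FPKM at day 1 (0.05 ± 0.14). Of 4 more Chst11 rows, which carry the KEGG number of CHST13, Chst11 (110493940) was higher (0.73 ± 0.17, -0.53 with epidermis scaling, not called with library size alone) with overlapping FPKM, and 2 were lower. The lower of these, Chst11 (110491911), had 0.34, 0.09 and 0.14 FPKM at day 90 and 1.06, 1.06 and 1.31 FPKM at day 1 (-2.15 ± 0.42, and -2.97 without day 90 replicate 1). CHST15 (110518744), which adds a further sulfate to 4-sulfated units, and Ust (110529900), for the 2-O position, did not pass (0.32 ± 0.21 and -0.01 ± 0.22). CHST15 (110513623) was lower (-1.12 ± 0.28, edgeR adjusted p = 0.00541), a row that passed the filter through day 1 alone. Summed CHST15 FPKM did not overlap, at 3.29 ± 0.49 at day 90 and 5.04 ± 0.69 at day 1.

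Several chondroitin genes had less RNA in day 1 replicate 3 than in the other day 1 libraries. Summed over the chondroitin chain enzymes the level was 35.9 FPKM there, against 48.5 and 47.8 FPKM in replicates 1 and 2, while the day 90 libraries held 26.4, 28.3 and 30.5 FPKM. Cartilage markers, of which 27 of 42 tested were lower and 11 higher, summed to 1736, 1650 and 2737 FPKM at day 90 and to 2638, 2485 and 1587 FPKM at day 1, so that day 1 replicate 3 was also the lowest day 1 library there. At day 90 no count was found in 2 of the 45 cartilage rows, and no marker had all its rows at 0. The low day 1 replicate 3 was not particular to cartilage. Epidermal markers summed to 2316, 2262 and 2139 FPKM in day 1 replicates 1, 2 and 3, and dermis and scale markers to 4072, 3753 and 2883 FPKM. Muscle and neural markers were instead highest in day 1 replicate 3, at 22758 and 1181 FPKM. Cartilage is rich in chondroitin sulfate; its part in these values was not tested.

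**Figure D2:**
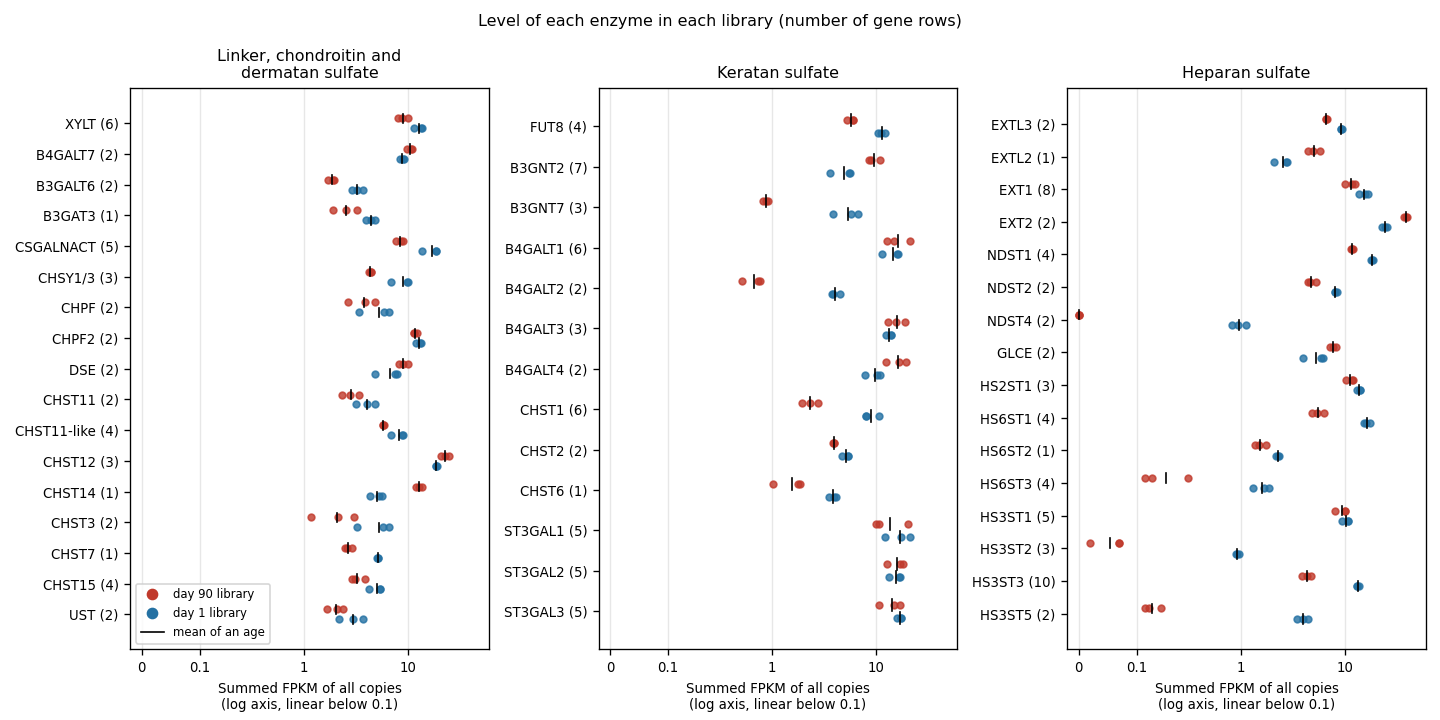
Summed FPKM of all gene rows of each enzyme (x axis, logarithmic above 0.1 and linear below) in the 3 day 90 libraries (red, upper of each pair) and the 3 day 1 libraries (blue), with the mean of each age as a black line and the number of rows in brackets. EXT2 stands highest, at 38.6 FPKM at day 90 and 24.3 FPKM at day 1, and NDST4 is at 0 in every day 90 library.

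In keratan sulfate synthesis the enzymes that lengthen the chain differed by gene between the ages. The rows named B3GNT2, a transferase that adds N-acetylglucosamine to galactose, were higher in 3 of 4 tested. All 3 tested rows named B3GNT7, of the same step, were lower. Each B3GNT7 row was under 1 FPKM in every day 90 library, so it passed the filter through day 1 alone. B3GNT2 (110486007) had 3.97, 4.88 and 4.48 FPKM at day 90 and 1.3, 1.36 and 0.63 FPKM at day 1 (2.49 ± 0.25, edgeR adjusted p = 1.76e-05, 1.24 with epidermis scaling). B3GNT2 (110489080) was higher by 0.97 ± 0.28, a call lost without day 90 replicate 3 (adjusted p = 0.0524), and -0.31 with epidermis scaling. Its FPKM overlapped between the ages, and it was not called with library size alone (0.58). B3GNT7 (110527831) had 0.73, 0.74 and 0.75 FPKM at day 90 and 2.25, 2.56 and 1.67 FPKM at day 1 (-1.16 ± 0.21). The other B3GNT7 rows were nearly silent at day 90, with 9 and 7 counts over the 3 libraries, against 247 and 155 counts at day 1. Their fold changes were -4.29 ± 0.63 for B3GNT7 (110492214), or -5.23 without day 90 replicate 1, and -3.96 ± 0.53 for B3GNT7 (110532396), or -5.15 without day 90 replicate 3. Summed, B3GNT2 stood at 9.51 ± 1.2 FPKM at day 90 and 4.89 ± 1.2 FPKM at day 1, and B3GNT7 at 0.87 ± 0.05 FPKM at day 90 and 5.41 ± 1.5 FPKM at day 1.

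The galactosyltransferases of the family B4GALT add the other sugar of the repeat. B4GALT4, which in mammals prefers sulfated N-acetylglucosamine as its acceptor, was higher in both rows with TMM factors and in 1 with library size alone. B4GALT4 (110534104) had 6.97, 9.03 and 11.33 FPKM at day 90 and 4.11, 4.74 and 3.85 FPKM at day 1 (1.48 ± 0.16, edgeR adjusted p = 2.69e-05, 0.20 with epidermis scaling), and B4GALT4 (110510090) was higher by 0.75 ± 0.18 (-0.53 with epidermis scaling). The FPKM of the second row overlapped between the ages, and it was not called with library size alone (0.35) or with limma (0.32). Both rows of B4galt2 were lower. B4galt2 (110508729) had 0.36, 0.49 and 0.3 FPKM at day 90 and 2.11, 2.04 and 2.46 FPKM at day 1 (-2.14 ± 0.22), and B4galt2 (110530319) was lower by a like amount (-2.28 ± 0.27). B4GALT3 (110488474) had 7.69, 9.48 and 12.26 FPKM at day 90 and 5.87, 5.9 and 4.7 FPKM at day 1 (1.21 ± 0.15, -0.07 with epidermis scaling). No day 90 value of the B4galt2 rows or of B4GALT3 (110488474) lay within the day 1 range. B4GALT3 (110492567) and B4GALT3 (110516329) did not pass (-0.38 ± 0.17 and 0.14 ± 0.10), with lower FPKM in every day 90 library. Summed B4GALT3 FPKM overlapped between the ages, at 15.8 ± 3 at day 90 and 13.4 ± 0.9 at day 1. FUT8, which puts the core fucose on N-glycans, was lower in 2 of 3 tested rows. The abundant FUT8 (110498325) had 3.88, 3.68 and 4.25 FPKM at day 90 and 5.74, 5.47 and 6.4 FPKM at day 1 (-0.19 ± 0.12, not past the threshold), while Fut8 (110529771) had 0.05, 0.06 and 0.06 FPKM at day 90 and 1.23, 1.03 and 1.26 FPKM at day 1 (-3.87 ± 0.30).

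The sulfotransferases of keratan sulfate were lower in sum. Those of chst1, which acts on galactose, differed most between copies. chst1 (118964962) had 0.73, 0.86 and 0.22 FPKM at day 90 and 5.97, 5.51 and 8.2 FPKM at day 1 (-3.03 ± 0.37, edgeR adjusted p = 6.18e-05), whereas chst1 (110497842) had 1.17, 1.7 and 1.46 FPKM at day 90 and 0.28, 0.38 and 0.27 FPKM at day 1 (2.58 ± 0.26, edgeR adjusted p = 1.85e-05, 1.32 with epidermis scaling). The first copy held 73.8% of the summed chst1 FPKM at day 1 and 25.9% at day 90. The 4 other chst1 rows were below the filter, each with a higher mean at day 1. CHST6 (MSTRG.453), whose human counterpart sulfates the keratan of the cornea, had 1.01, 1.79 and 1.85 FPKM at day 90 and 4.14, 3.92 and 3.54 FPKM at day 1 (-0.94 ± 0.20). Chst2 (110535463), of the same activity on N-acetylglucosamine, had 3.56, 3.6 and 3.59 FPKM at day 90 and 4.14, 3.19 and 4.47 FPKM at day 1 (0.25 ± 0.16). Its ages overlapped, and the summed level of the 9 sulfotransferase rows was 7.81 ± 0.69 FPKM at day 90 and 17.9 ± 1.5 FPKM at day 1.

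Sialyltransferases of the ST3GAL group cap keratan and many other glycans. St3gal2 (110527664) had 5.17, 6.26 and 8.63 FPKM at day 90 and 1.62, 2.34 and 1.22 FPKM at day 1 (2.34 ± 0.24, edgeR adjusted p = 2.27e-05, 1.06 with epidermis scaling). The copy St3gal2 (110493845) had 5.89, 8.85 and 7.39 FPKM at day 90 and 11.1, 10.55 and 8.47 FPKM at day 1 (-0.06 ± 0.15), and ST3GAL2 (110494626) was lower (-1.05 ± 0.25). The 5 rows with the KEGG number of ST3GAL2 summed to overlapping levels, at 15.9 ± 2.9 FPKM at day 90 and 15.5 ± 1.9 FPKM at day 1. St3gal3 (110508931) had 7.49, 10.33 and 11.24 FPKM at day 90 and 5.54, 5.84 and 6.29 FPKM at day 1 (1.10 ± 0.14, -0.19 with epidermis scaling), and the 4 other rows with that KEGG number were lower. The largest fall of the 4 was that of MSTRG.43079 (-2.28 ± 0.25), whose product name is a mobile-element polymerase. It passed the filter through day 1 alone. Among these 4, ST3GAL3 (110530111) lost its call without either of day 90 replicates 1 and 2 or day 1 replicates 1 and 2 (adjusted p up to 0.157), and St3gal3 (110524628) without any library but day 90 replicate 3 (up to 0.128). ST3GAL1 (100136102), with 3.39, 2.34 and 7.14 FPKM at day 90 and 8.07, 5.3 and 4.15 FPKM at day 1, did not pass (-0.06 ± 0.39). ST3GAL1 (110496379) was higher by 0.62 ± 0.19 (-0.66 with epidermis scaling), a call lost without day 90 replicate 2 or 3 or day 1 replicate 2 or 3 (adjusted p up to 0.0841). Its FPKM overlapped between the ages, and it was not called with library size alone (0.24).

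The keratan genes varied most among the day 90 libraries. Their summed FPKM was 94.8, 114 and 141 in day 90 replicates 1, 2 and 3, and 139, 135 and 117 in day 1 replicates 1, 2 and 3, so that the ages overlapped. Muscle markers summed to 9397, 2732 and 2594 FPKM in the same day 90 libraries, with replicate 1 apart from the others, and to 18339, 18985 and 22758 FPKM at day 1. Of 40 tested muscle rows 24 were lower and 8 higher, and 3 of the list's rows had no count at day 90. Mucous cell markers, of which 9 of 12 tested were higher and 1 lower, summed to 602, 814 and 1100 FPKM in day 90 replicates 1, 2 and 3. At day 1 they summed to 440, 515 and 352 FPKM. Epidermal markers, of which 37 of 56 tested were higher and 12 lower, summed to 7537, 8734 and 9056 FPKM at day 90. The part of muscle, mucous cell or epidermal RNA in the keratan values was not tested.

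**Figure D3:**
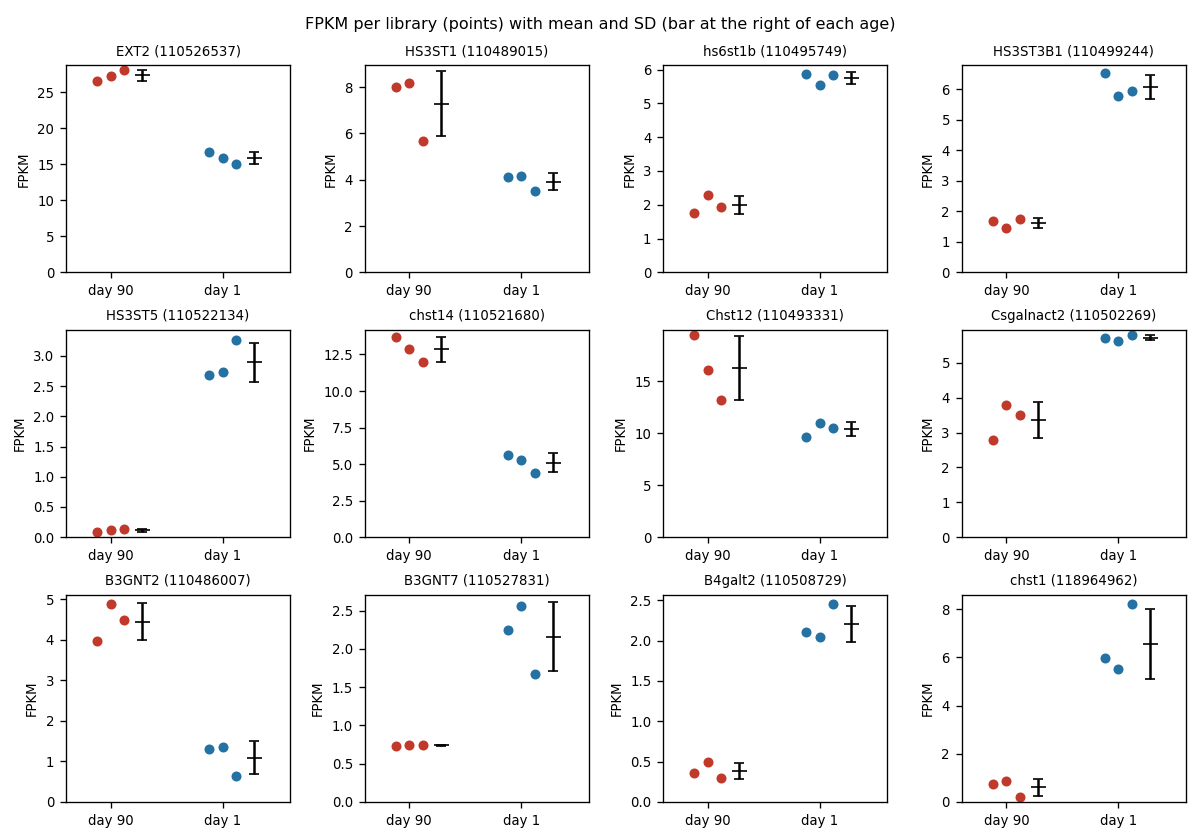
FPKM of 12 genes in each library (points, red for day 90 and blue for day 1) with the mean and SD of each age (n = 3 each). The day 90 points of EXT2 (110526537), HS3ST1 (110489015), chst14, Chst12 and B3GNT2 lie above all day 1 points, and those of the 7 other genes below them; with epidermis scaling the fitted fold changes of EXT2 and Chst12 turn negative.

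In heparan sulfate synthesis both rows of the polymerase subunit EXT2 were higher. Of 24 tested rows for the epimerase and sulfotransferases that modify the chain, 3 were higher and 14 lower. These are 12.5% and 58.3%, against 32.5% and 35.4% of all genes tested. Among the lower rows ndst1 (110488619), HS3ST1 (110526778), Hs3st1 (110526036), Hs3st3b1 (118948632) and HS3ST5 (110522134) passed the filter through day 1 alone. EXT2 (110526537) was the most abundant of all 150 members, with 26.64, 27.29 and 28.12 FPKM at day 90 and 16.73, 15.88 and 15.03 FPKM at day 1 (1.17 ± 0.10, edgeR adjusted p = 5.74e-06, -0.09 with epidermis scaling). EXT2 (110506669) had 10.24, 11.97 and 11.45 FPKM at day 90 and 8.7, 8.63 and 8.05 FPKM at day 1 (0.79 ± 0.10, -0.47 with epidermis scaling). The replicates of both copies lay close together and the ages were apart. EXT1, the partner that forms the polymerase with EXT2, was spread over 8 rows and went both ways. EXT1 (110522229) had 1.56, 1.63 and 1.65 FPKM at day 90 and 1.11, 1.15 and 1.07 FPKM at day 1 (0.93 ± 0.15, -0.33 with epidermis scaling). ext1b (110496112) had 2.26, 2.37 and 3.07 FPKM at day 90 and 4.58, 4.47 and 4.4 FPKM at day 1 (-0.43 ± 0.12), and ext1c (110488385) was lower by more (-0.85 ± 0.16). In sum EXT2 stood at 38.6 ± 1.5 FPKM at day 90 and 24.3 ± 1.2 FPKM at day 1, and EXT1 at 11.4 ± 1.3 FPKM at day 90 and 15.3 ± 1.5 FPKM at day 1.

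EXTL2 (110509057), a transferase that can add a hexosamine to the linker, had 5.74, 4.92 and 4.41 FPKM at day 90 and 2.75, 2.79 and 2.1 FPKM at day 1 (1.38 ± 0.18, 0.14 and not past the threshold with epidermis scaling). EXTL3, which starts the heparan chain, did not pass in either row. EXTL3 (110529776) had 3.78, 3.88 and 3.61 FPKM at day 90 and 5.09, 5.34 and 5.06 FPKM at day 1 (-0.07 ± 0.10), so that its FPKM were apart while the fold change on TMM-scaled counts was near 0. With library size alone both EXTL3 rows were called lower.

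Chain modification begins with NDST, which swaps the acetyl group of glucosamine for sulfate. NDST1 (110534188) had 5.93, 6.79 and 6.37 FPKM at day 90 and 8.36, 7.66 and 7.87 FPKM at day 1 (0.05 ± 0.10, not past the threshold, but lower with library size alone at -0.34). Of the other NDST1 rows, 2 of 3 were lower, of which ndst1 (110488619) passed the filter through day 1 alone. NDST2 was lower in both rows. NDST2 (110528470) had 2.25, 2.8 and 2.36 FPKM at day 90 and 4.36, 4 and 4.06 FPKM at day 1 (-0.38 ± 0.13, edgeR adjusted p = 0.022), and the call was lost without day 1 replicate 1 or 2 (adjusted p up to 0.0809). The copy Ndst2 (110502443), lower by 0.42 (-0.42 ± 0.14), lost its call without day 1 replicate 2 or 3 (up to 0.068). The epimerase rows glceb, which make iduronic acid in heparan, were both higher. glceb (110506198) had 4.26, 3.52 and 3.89 FPKM at day 90 and 3.02, 3.25 and 1.69 FPKM at day 1 (0.94 ± 0.23, -0.29 with epidermis scaling, and not past the threshold with library size alone). HS2ST1, the 2-O-sulfotransferase, did not pass in any of 3 rows, and HS2ST1 (110530088) had 5.7, 5.79 and 5.92 FPKM at day 90 and 6.55, 6.47 and 6.75 FPKM at day 1 (0.20 ± 0.11).

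All 4 rows of hs6st1b, which add sulfate at the 6-O position of glucosamine, were lower. hs6st1b (110495749) had 1.77, 2.29 and 1.93 FPKM at day 90 and 5.86, 5.54 and 5.83 FPKM at day 1 (-1.14 ± 0.13, edgeR adjusted p = 4.8e-05), and the other rows stood at -1.13 ± 0.20, -1.18 ± 0.16 and -1.32 ± 0.19. Their sum was 5.55 ± 0.78 FPKM at day 90 and 16.4 ± 0.95 FPKM at day 1. hs6st2 (110519954) had 1.51, 1.75 and 1.37 FPKM at day 90 and 2.33, 2.3 and 2.18 FPKM at day 1 (-0.17 ± 0.16) and did not pass.

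The 3-O-sulfotransferases, which finish rare binding sites such as that for antithrombin, held both the heparan gene with the smallest adjusted p and many rows nearly silent at day 90. HS3ST5 (110522134) had 0.09, 0.12 and 0.13 FPKM at day 90 and 2.69, 2.73 and 3.27 FPKM at day 1 (-4.30 ± 0.27, edgeR adjusted p = 8.43e-07), the smallest adjusted p among the 150 members. This HS3ST5 row passed the filter through day 1 alone. HS3ST3B1 (110499244) had 1.68, 1.45 and 1.74 FPKM at day 90 and 6.54, 5.79 and 5.95 FPKM at day 1 (-1.52 ± 0.12). Of 10 rows of HS3ST3, 3 were tested and all 3 were lower. Among them Hs3st3b1 (118948632), under 1 FPKM in every day 90 library, passed the filter through day 1 alone. HS3ST1 divided by copy. HS3ST1 (110489015) had 7.99, 8.18 and 5.65 FPKM at day 90 and 4.1, 4.17 and 3.49 FPKM at day 1 (1.29 ± 0.18, 0.05 and not past the threshold with epidermis scaling), and HS3ST1 (110526778) had 0.17, 0.2 and 0.34 FPKM at day 90 and 1.63, 1.84 and 1.67 FPKM at day 1 (-2.49 ± 0.30). The higher copy made up 77.4% of the summed HS3ST1 FPKM at day 90 and 37.9% at day 1. The genes HS3ST3B1 (110502957) and HS3ST3A1 (110502958), direct neighbours in the assembly USDA_OmykA_1.1, had means of 1.11 and 0.147 FPKM at day 90 and of 2.66 and 0.0833 FPKM at day 1.

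Of the 22 heparan rows below the filter, 2 had a higher mean at day 90, namely HS3ST3A1 (110502958) and MSTRG.1769. NDST4 (110515781) had no count at day 90 and 0.43, 0.7 and 0.6 FPKM at day 1, at least 26-fold lower against a floor of 3 counts over the age. hs6st3b (110504222) had no count at day 90 and 0.57, 0.55 and 0.73 FPKM at day 1, at least 46-fold lower. HS3ST2 (110538265) had no count at day 90 and 0.45, 0.37 and 0.47 FPKM at day 1, at least 16-fold lower. These rows were not tested, and at day 90 a level under the floor was not detectable at this depth. Over the same libraries neural markers were lower in 28 of 37 tested rows and higher in 4. They summed to 360 to 393 FPKM at day 90 and 1040 to 1181 FPKM at day 1, and 7 of their 45 rows had no count at day 90. The part of neural or lens RNA in the day 1 levels was not tested.

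**Figure D4:**
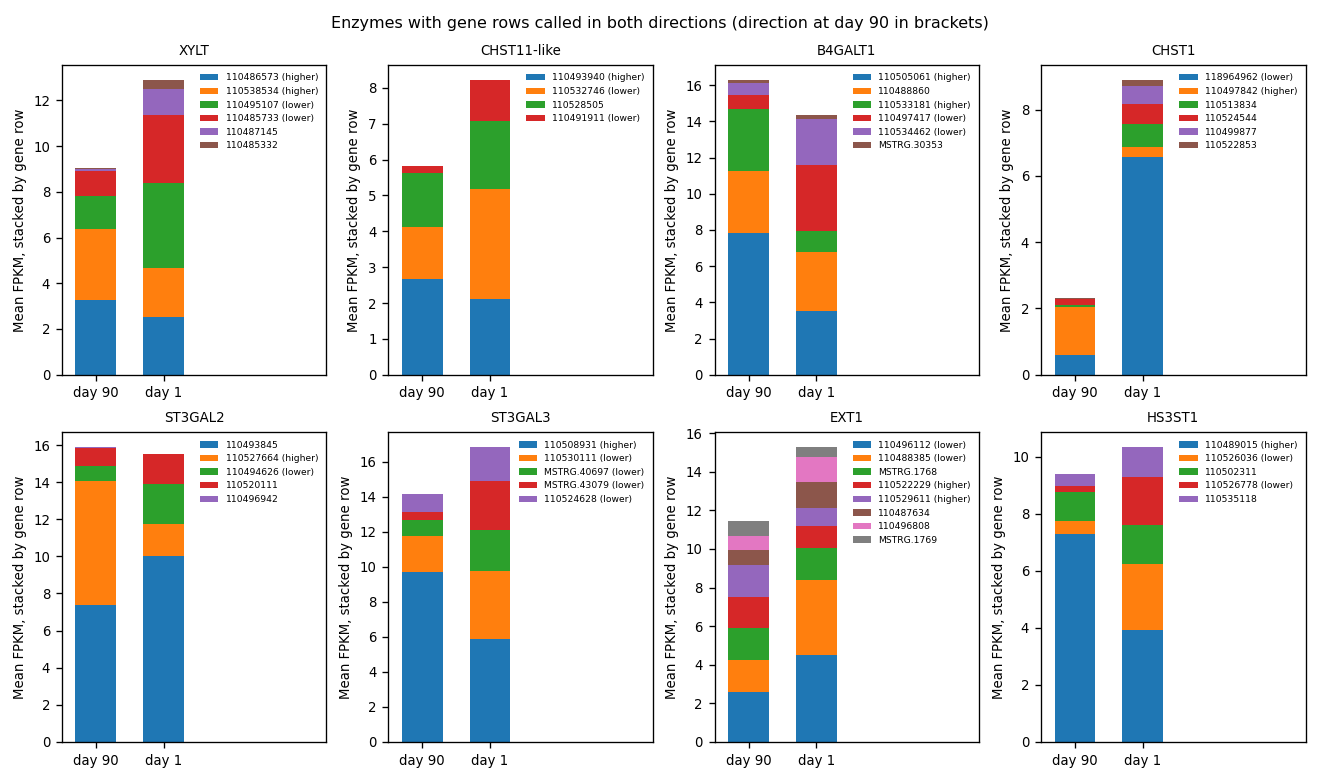
Mean FPKM of each gene row, stacked (y axis, from 0), at day 90 (left bar) and day 1 (right bar) for the 8 KEGG enzyme numbers with at least 1 row called higher and 1 called lower. Colours are rows, with the direction at day 90 in brackets; the XYLT panel joins XYLT1 and XYLT2, and with epidermis scaling only chst1 (110497842) and St3gal2 (110527664) of the higher rows stay called higher.

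Across the 46 KEGG enzyme numbers of these pathways, 40 had several rows. Rows of 12 were called in the higher direction alone, rows of 15 in the lower direction alone, rows of 8 in both, and 11 had no call, 3 of them with no row tested. The 8 were XYLT, the CHST11-like rows, B4GALT1, CHST1, ST3GAL2, ST3GAL3, EXT1 and HS3ST1. B4GALT1 (110505061) had 7.2, 7.44 and 8.87 FPKM at day 90 and 3.93, 3.92 and 2.71 FPKM at day 1 (1.54 ± 0.14, 0.29 and not past the threshold with epidermis scaling). B4galt1 (110497417) had 0.46, 0.43 and 1.39 FPKM at day 90 and 3.79, 3.81 and 3.2 FPKM at day 1 (-1.89 ± 0.37, and -2.63 without day 90 replicate 3). The sum over the copies was 16.3 ± 4.3 FPKM at day 90 and 14.4 ± 2.7 FPKM at day 1 and overlapped between the ages. Summed FPKM overlapped between the ages for 10 enzymes, and of the others 9 were higher and 27 lower at day 90. Of all genes tested singly, 75.2% did not overlap, and FPKM carry the library size scaling under which 5941 of all genes were called higher and 14887 lower. Calls differed by level too, but a row of low level could pass the filter through an age alone, which then set the direction of its FPKM. Of 23 tested members with a mean of at least 4 FPKM 13 were higher and 1 lower, where 41.5% and 27.4% of all genes of that level were, and of 41 below 2 FPKM 5 were higher and 22 lower, where 19.6% and 49.9% of all such genes were.

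Genes that feed the pathways moved both ways, with 12 of 29 tested supply genes higher, 5 lower and a median log2 fold change of 0.26. Of all tested genes 32.5% were higher and 35.4% lower. UGDH (110518820), which makes the glucuronic acid donor, stood at 11.3 ± 1.9 FPKM at day 90 and 4.73 ± 0.14 FPKM at day 1 (1.58 ± 0.17), and UGDH (110534110) at 1.16 ± 0.2 FPKM at day 90 and 4.04 ± 1.2 FPKM at day 1 (-1.40 ± 0.25). SLC35A3 (110508983), a Golgi carrier of the N-acetylglucosamine donor, was higher (1.75 ± 0.21). SLC26A2 (100136215), of a sulfate transporter family, was lower (-3.80 ± 0.36). BPNT1 (100301784), which clears a by-product of sulfation, was the most abundant, at 23.5 ± 1.1 FPKM at day 90 and 17.2 ± 1 FPKM at day 1 (0.84 ± 0.11, -0.41 with epidermis scaling). Of the kinase and phosphatase of the linker xylose, fam20b (110521613) was higher by 0.67 ± 0.17 and pxylp1 (110504117) by 0.65 ± 0.14, both negative with epidermis scaling and not called with library size alone, while pxylp1 (110507937) did not pass (-0.32 ± 0.15).

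Rows for enzymes that trim finished heparan outside the cell were counted together with those of HPSE2. Of the 9 tested, 4 were higher and 2 lower, where 32.5% and 35.4% of all tested genes were. SULF2 (110532288), which removes 6-O-sulfate, stood at 36.9 ± 2.9 FPKM at day 90 and 17.6 ± 0.96 FPKM at day 1 (1.45 ± 0.11, edgeR adjusted p = 3.1e-06). SULF2 (MSTRG.10822) had 3 counts over the day 90 libraries and 1664 over the day 1 libraries, a ratio of 410 in favour of day 1 (95% interval 140 to 2000), and SULF2 (110493251) was also lower (-4.28 ± 0.26). HPSE2 (118943876), an inactive relative of heparanase, was higher (2.80 ± 0.22).

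Core proteins that carry the chains are given here by class, without a test between classes, where 32.5% of all tested genes were higher and 35.4% lower. Of 13 tested keratan sulfate core genes 11 were higher and 1 lower (median log2 fold change 3.11), and their FPKM summed to 2047 to 2381 at day 90 and 258 to 351 at day 1. Of 51 tested rows of dermis and scale markers 40 were higher and 6 lower (median 2.65), with no row at 0 at either age. LUM and FMOD stand in both this list and the keratan core list, so their rows are counted in both. The part of dermis and scale in these values was not tested. LUM (110499892), for lumican, stood at 899 ± 71 FPKM at day 90 and 69.6 ± 9.9 FPKM at day 1 (4.08 ± 0.17). The lower gene, kera (110490858), had no count at day 90 and 509 counts at day 1, at least 120-fold lower, and its product name is titin-like. Of 40 chondroitin and dermatan core genes 13 were higher and 22 lower (median -0.79). Cd74 (100136156), of immune cells, stood at 451 ± 60 FPKM at day 90 and 2.58 ± 0.62 FPKM at day 1, and Cspg5 (110487045), a neural proteoglycan in mammals, at 2.3 ± 0.074 FPKM at day 90 and 29.8 ± 3.2 FPKM at day 1. Of 28 heparan core genes 12 were higher and 4 lower (median 0.30). gpc1 (110524403), a glypican of the cell surface, stood at 15.5 ± 1.4 FPKM at day 90 and 2.93 ± 0.25 FPKM at day 1 (2.78 ± 0.11), and Gpc6 (110489024), whose product name is glypican-2, at 0.0367 ± 0.025 FPKM at day 90 and 12 ± 1.4 FPKM at day 1 (-7.92 ± 0.27). HSPG2 (110512959), for a perlecan-like basement membrane protein, was lower (-3.45 ± 0.69), and Sdc2 (110493965), a syndecan and the most abundant of the class, was higher (0.90 ± 0.14, -0.36 with epidermis scaling).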

How the data were processed

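RNA-seq of dorsal skin at 2 ages gave 1 table of the whole series. It holds, per the file headers, each library's count and FPKM for every gene, the mean FPKM of each age, a log2 fold change, a p-value and an FDR. The submitters' processing notes name TopHat2 2.1.1 and Bowtie2 2.2.8, without a role. Counting tool, build, strand and the handling of multiply matching reads were not given in the sources at hand, so no coordinates are given. Symbols and products come from the deposited table; all 140 NCBI numbers were found in the RefSeq table of USDA_OmykA_1.1, used for neighbours alone. A further stage named in the design text is not analysed here.

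Members were taken by the Pathway column and grouped by KEGG number. Members, lists and alternatives were chosen with earlier results of these data known. Named genes were, per enzyme, the tested copy with the highest mean FPKM, the 5 smallest adjusted p in each direction per pathway, and the extreme copies of enzymes called in both directions; of each other list, up to 2 genes with the smallest adjusted p in each direction and the most abundant. Other genes named were chosen after their values were seen. List genes were matched by symbol, with an optional copy letter. ACAN, NCAN, BCAN, DCN, CD74, LUM, FMOD, KERA and HAPLN1 each stand in a pathway list and in a cell type list, so those lists share rows.

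Counts of 29436 genes (FPKM of at least 1 in at least 3 libraries) entered edgeR 4.0.16 (quasi-likelihood test, R 4.3.3) with TMM factors and age as the sole term; p-values were adjusted over all tested genes by Benjamini and Hochberg's method. SEs were obtained by dividing the log2 fold change by the root of the F statistic. DESeq2 1.42.0 and limma 3.58.1 were alternatives, with other scalings, filters, a replicate block and each library left out. Tested genes held 98.4% to 99.3% of a library's counts, and the median tested member had 155 counts per library. Tested on simulated data for day 90 against day 1 (29436 genes), edgeR found 76 of the 100 genes set to a 2-fold change, 98 of the 100 set to 4-fold, and called 18 unchanged ones. Against an age with no count a fold is a bound at 3 counts over that age (as a share of one library, 3 counts are 1.58e-05% to 1.86e-05%); with 1 to 3 counts the ratio has an exact 95% binomial interval. Both cover counting error only.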

Additional observations from a re-analysis of the deposited data

How the results depend on the processing

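Depth limits the rows of few counts, and 3 libraries an age limit small changes. The scaling moved most values. With counts scaled to the epidermis list 4 members were higher and 91 lower (chondroitin and dermatan 1 and 33, keratan 3 and 29, heparan 0 and 36; all genes 2093 and 22995). Keeping genes of at least 5 FPKM left 25 members, 13 higher and 7 lower (4 and 2, 6 and 2, 4 and 3; all genes 4706 and 5036). Asking for a fold of 2 gave 15 higher and 28 lower (chondroitin and dermatan 2 and 7, heparan 4 and 12; all genes 4772 and 6640). No filter gave 12 higher and 32 lower heparan genes of 66 (all genes 11552 and 14221 of 42269). Over all genes 5941 were higher with library size alone, 6084 with limma on log2(FPKM + 1) and 5989 on log2(FPKM + 0.1). The cause of these shifts was not tested.

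Without any one library 26 to 28 members were higher and 41 to 46 lower. Of the 28 higher genes 25 kept their call in all 6 such fits, as did 41 of the 46 lower ones. With a replicate block 28 were higher and 43 lower, and over all genes 8764 and 9791. The labels do not say whether the same replicate numbers pair libraries. Correlations of deviations from the age mean were -0.0886, 0.00411 and -0.123 for same numbers and -0.0733 to 0.118 for unlike numbers. With 3 libraries an age they cannot decide whether libraries were paired.

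With epidermis scaling the log2 fold change turned negative for XYLT2 (110486573) to -0.51, XYLT2 (110538534) to -0.36, B4galt7 to -0.47, CHPF2 (110489909) to -1.14 and DSE to -0.25. The same held for chst11 (110490368) at -1.23, Chst11 (110493940) at -0.53, Chst12 (110493331) at -0.19, CHST15 (110518744) at -0.93 and B4GALT3 (110488474) at -0.07. Chst2 went to -1.02, St3gal3 (110508931) to -0.19, EXT1 (110522229) to -0.33, EXT2 (110506669) to -0.47 and EXT2 (110526537) to -0.09. The sign also turned negative for glceb at -0.29, HS2ST1 at -1.06, Sdc2 at -0.36, pxylp1 at -0.61, fam20b at -0.60 and BPNT1 at -0.41. NDST1 (110534188) was -1.21 with it, -0.34 with library size alone, and -0.28 and -0.32 with limma at pseudocounts 1 and 0.1. GUSB (110537844) was -0.87, -0.03, -0.01 and -0.02 in the same order.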

Other observations

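Genes of lysosomal breakdown of these chains were higher at day 90 in 18 of 22 tested, with 0 lower and a median log2 fold change of 0.85. Of all tested genes 32.5% were higher and 35.4% lower. These calls are with TMM factors, and the list was not counted with the other scalings. The median of all tested genes fell to -0.43 with library size alone and to -1.30 with epidermis scaling. ARSB (110509666), which removes sulfate from dermatan and chondroitin, stood at 4.52 ± 0.24 FPKM at day 90 and 1.74 ± 0.37 FPKM at day 1 (1.77 ± 0.17, edgeR adjusted p = 1.61e-05). The most abundant gene of this list, GUSB (110537844), was nearly even, at 14.7 ± 1 FPKM at day 90 and 14.9 ± 1.1 FPKM at day 1 (0.37 ± 0.11, edgeR adjusted p = 0.0155), and its sign turned with library size alone. Of 7 markers listed for mast and other blood cells, SRGN, CPA3 and LYZ matched no row. The 4 matched markers, Cd74 (described above) among them, were higher in 7 of 8 tested rows. They summed to 528 to 643 FPKM at day 90 and 15.1 to 21.4 FPKM at day 1, with no row at 0 at either age. Their part in the lysosomal values was not tested.

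Genes of hyaluronan, the glycosaminoglycan that carries no sulfate, went both ways, with 3 higher and 3 lower of 9 tested. Of all tested genes 32.5% were higher and 35.4% lower. HAPLN1 (110535717), a link protein of cartilage matrix, was lower, at 15.2 ± 11 FPKM at day 90 and 80.9 ± 5.8 FPKM at day 1 (-1.98 ± 0.45), and Hapln3 (110506823) was lower too (-0.87 ± 0.28, a call lost without day 90 replicate 2 or day 1 replicate 3). CEMIP (110526709), which takes part in breaking hyaluronan down, was higher, at 5.37 ± 0.65 FPKM at day 90 and 2.59 ± 0.23 FPKM at day 1 (1.43 ± 0.11), as was CEMIP (118964944) (1.28 ± 0.15). HAS2 (110520721), a hyaluronan synthase named after its value was seen, was lower (-0.73 ± 0.27, edgeR adjusted p = 0.0354).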
